A study of Mus musculus with 8 samples.

Results

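The 9 genes described here carry thyroid hormone signalling in and around the hepatocyte: the receptors Thra and Thrb, their partner Rxra, the deiodinases Dio1 and Dio2, the transporter Slc16a10, the hormone-binding protein Crym and the response genes Thrsp and Klf9. They were chosen by name, with earlier results of these data known, out of 21755 protein-coding genes on chromosomes 1 to 19 and X. Every open region in the body of one of them or within 10 kb of it was taken from the deposited lists. ATAC-seq, in which a transposase inserts sequencing adapters where chromatin is accessible, was run on liver nuclei of adult C57BL/6 mice, with 4 control and 4 Alb-D2KO libraries. Alb-D2KO mice carry a floxed Dio2 allele recombined by Cre under the albumin promoter, which the paper describes as inactivation specific to hepatocytes. Whether other liver cells keep Dio2 was not tested here. The sample titles mark the controls as cre, so Cre is common to both groups by those titles, and sex is not given in the labels. The data are 2 lists from pooled calls: 8031 regions called in controls that overlap none in Alb-D2KO liver, for which the term RCA (region of reduced chromatin accessibility) is used, and 250 regions called in Alb-D2KO liver alone. The first list is 32.1 times as long as the second, and whether sequencing depth differed between the pools was not tested, since the lists do not give the depth of a library. A region is in or out of a list for the whole group, so no value below has a replicate error and none was tested.

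Thyroid hormone reaches cells mostly as the prohormone T4, enters through membrane transporters, and is converted to the active hormone T3, or inactivated, by deiodinases. T3 binds receptors that sit on DNA as heterodimers with retinoid X receptors, usually at pairs of a short half-site, where they recruit corepressors without hormone and coactivators with it. In the liver this pathway is known for its control of lipogenesis, cholesterol handling and fuel use, and Dio1 and Thrsp are among its classical induced genes.

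Lost regions lay at 7 of the 9 genes (77.8%, 95% Wilson interval 45.3% to 93.7%), while 25.3% of all coding genes had an RCA in the body or within 10 kb. Thrb had 5 RCAs, Rxra 4, Dio1 3, Thra and Thrsp 2 each, and Slc16a10 and Crym 1 each, 18 in all. Dio2 and Klf9 had none. No region open only in Alb-D2KO liver lay at any of the 9 genes, beside 1.02% of all coding genes with such a region. This count of 0 allows a share of up to 33.3%, taken as 3 divided by the number counted. That limit is rough for so few genes, and it is used for the other counts of 0 below. The intervals cover counting error over genes only. The genes are not a random sample and were named with results of these data known, which no interval covers. The 25.3% also counts genes with no open region in control liver, and the lists do not tell which genes these are.

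**Figure D1:**
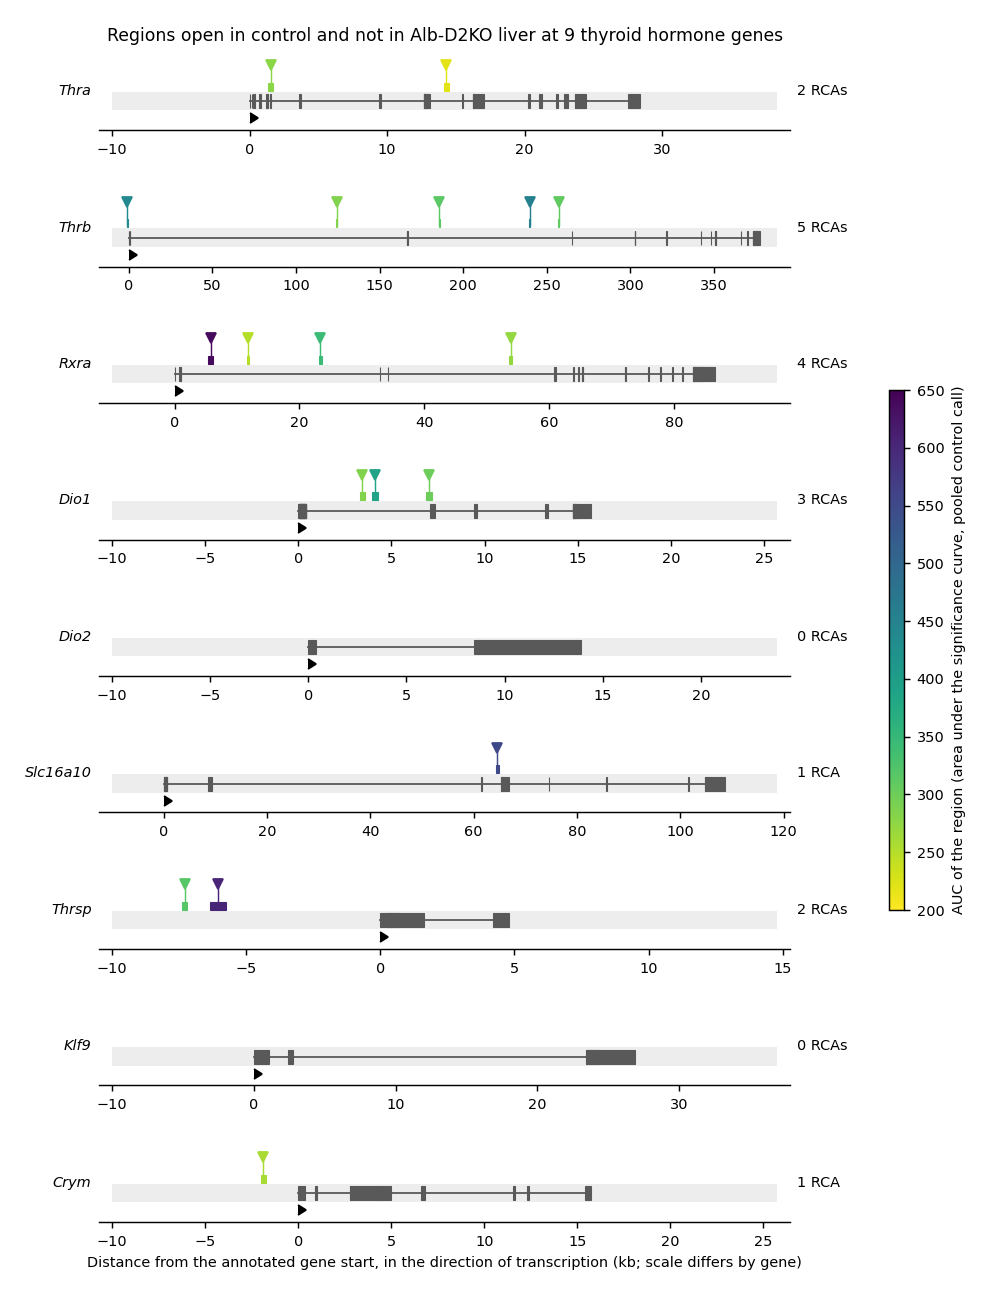
Position of each RCA along the 9 genes. The x axis is the distance from the annotated gene start in kb, in the direction of transcription and with its own scale for each gene; dark boxes are annotated exons of any transcript, the grey band is the body with 10 kb on either side, and the triangles mark RCAs coloured by AUC. Of the 18 RCAs, 14 lie in a gene body and 4 outside, the latter all upstream of the start, and Dio2 and Klf9 have none.

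The sequences around the summits of 6 RCAs are printed first, since they hold the letters to which the results below refer back. All are plus-strand sequence of mm10 (GRCm38) read from RefSeq's copy of that build. Capitals mark the half-site AGGTCA on either strand (TGACCT when read on the plus strand), pairs of it with at most 1 mismatch in each half-site, or the C/EBP core TTGCNNAA. The first is shown because it holds the only pair spaced by 4 bases, the arrangement known as DR4 and usual for thyroid hormone receptors, and covers chr7:97423788-97424087, upstream of Thrsp.
Thrsp RCA 1: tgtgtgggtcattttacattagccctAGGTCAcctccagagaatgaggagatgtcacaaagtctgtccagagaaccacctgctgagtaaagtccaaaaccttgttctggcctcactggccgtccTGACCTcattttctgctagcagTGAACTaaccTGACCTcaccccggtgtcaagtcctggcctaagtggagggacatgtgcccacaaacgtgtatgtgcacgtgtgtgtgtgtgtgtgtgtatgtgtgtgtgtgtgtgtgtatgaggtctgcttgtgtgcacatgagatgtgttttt
The next lies in an intron of Dio1 at chr4:107303594-107303774 and is shown for a half-site 11 bp from the summit and a pair spaced by 1 base (DR1).
Dio1 RCA 3: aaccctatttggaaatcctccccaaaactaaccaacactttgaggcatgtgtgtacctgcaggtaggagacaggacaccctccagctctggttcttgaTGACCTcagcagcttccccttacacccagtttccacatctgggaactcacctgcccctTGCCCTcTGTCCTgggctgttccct
The following 3 lie in introns of Thrb and are shown because they are neighbours with different letters: a C/EBP core at chr14:17846018-17846138, a DR1 pair at chr14:17899859-17900039 and a single half-site at chr14:17917474-17917594.
Thrb RCA 3: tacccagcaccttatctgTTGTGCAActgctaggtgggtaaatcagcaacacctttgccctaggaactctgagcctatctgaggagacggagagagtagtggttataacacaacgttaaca
Thrb RCA 4: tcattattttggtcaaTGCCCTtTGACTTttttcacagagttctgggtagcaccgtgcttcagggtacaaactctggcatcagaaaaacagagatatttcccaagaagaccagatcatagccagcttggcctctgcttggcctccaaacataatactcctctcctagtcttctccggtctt
Thrb RCA 5: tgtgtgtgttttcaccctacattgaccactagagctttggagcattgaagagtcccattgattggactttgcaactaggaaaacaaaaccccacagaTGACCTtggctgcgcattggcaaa
The last lies in an intron of Slc16a10 at chr10:40077713-40077833 and holds the same C/EBP core as Thrb RCA 3.
Slc16a10 RCA 1: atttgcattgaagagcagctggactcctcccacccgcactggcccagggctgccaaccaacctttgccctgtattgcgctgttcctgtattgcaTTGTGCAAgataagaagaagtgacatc

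Thrb encodes the receptor that predominates in hepatocytes, and it had more RCAs than any other of the 9 genes. It spans chr14:17660261-18038090 on the plus strand, 378 kb. Its first RCA, chr14:17659075-17659500, was intergenic and lay 761 bp upstream of the body, with an AUC (area under the curve of the caller's significance over the region) of 438, higher than 89.0% of all RCAs. The other 4 lay in introns, 124, 186, 240 and 257 kb downstream of the gene start. Their AUCs were 285 for Thrb RCA 2, 315 for Thrb RCA 3, 455 for Thrb RCA 4 and 310 for Thrb RCA 5, so the regions nearest the start and at 240 kb stood above the other 3. An AUC comes from the pooled control call and does not measure the size of the loss. Over all RCAs the lowest AUC was 200 and the lower quartile 232. Thrb RCA 3, 4 and 5 lay between the same neighbouring pair of annotated exons, which are 98.3 kb apart. The share of genes with an RCA differed with gene length, so each gene is set beside coding genes of similar length. Among the 301 coding genes with 80% to 125% of the length of Thrb, 33.9% (28.8% to 39.4%) had an RCA and 4.98% had 5 or more.

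Thra, the other receptor gene, spans chr11:98740638-98769006 on the plus strand and had 2 RCAs. Thra RCA 1, chr11:98741990-98742362, had an AUC of 278, close to the median of all RCAs, and its midpoint was 18 bp from the start of an annotated Thra transcript, so it was in the promoter class (within 200 bp of an annotated start). It was the only RCA in the promoter class at a start of its own gene. It lay 1538 bp downstream of the outermost start of Thra, which other transcripts use. Thra RCA 2, chr11:98754767-98755107, lay in intron 2 of 8, 14.3 kb from the outermost start and 1351 bp from the nearest Thra start. It had the lowest AUC of the 18, 221. Of the 2614 coding genes of similar length, 27.1% had an RCA and 9.41% had 2 or more. The 3′ end of Thra overlaps Nr1d1, a circadian repressor on the opposite strand, which had no RCA in its body or within 10 kb. Beyond the limit, an intergenic RCA with an AUC of 255 lay 16.8 kb past the 3′ end of Thra. An intronic one with an AUC of 220 lay 29.9 kb from Thra on the other side.

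Rxra encodes the retinoid X receptor that pairs with both thyroid hormone receptors and with many other nuclear receptors of the liver. It spans chr2:27676440-27762957 on the plus strand, and its 4 RCAs all lay in intron 1 of its principal transcript, 5.79, 11.7, 23.4 and 53.8 kb downstream of the gene start. Rxra RCA 1, chr2:27681802-27682650, was the widest of the 18 at 849 bp and had the highest AUC, 637, above 98.4% of all RCAs. Its AUC per bp was 0.751, under the median of all RCAs (0.909). The AUCs of Rxra RCA 2, 3 and 4 were 250, 343 and 273, so only Rxra RCA 1 and 3 were above the median AUC of the list. Of 1419 coding genes of similar length, 33.3% had an RCA and 3.10% had 4 or more. An intergenic RCA with an AUC of 627 lay 49.3 kb from the gene body, beyond the 10 kb limit.

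Dio1 encodes the deiodinase of the adult liver, and its transcription is known to rise with T3. It spans chr4:107291465-107307169 on the minus strand, and its 3 RCAs lay 3.44, 4.11 and 7.03 kb downstream of the start. Dio1 RCA 2, chr4:107302912-107303211, had the highest AUC of them, 388, against 285 for Dio1 RCA 3, chr4:107303604-107303855, and 301 for Dio1 RCA 1, chr4:107299981-107300295. Dio1 RCA 2 and 3 were in intron 1 of 3 and lay 0.392 kb apart. Dio1 RCA 1 fell in the exon class through 116 bp of an exon that the annotation gives neither coding nor untranslated sequence, and it lay inside intron 1 of the principal transcript. A gene of this length seldom had so many: among 2609 coding genes of similar length 27.2% had an RCA and 3.03% had 3 or more. Beyond the 10 kb limit, an RCA of the exon class with an AUC of 206 lay 44.0 kb from the gene body.

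Dio2, the deleted gene, encodes the deiodinase that converts T4 to T3 within cells. It spans chr12:90724552-90738438 on the minus strand and had neither an RCA nor a region open only in Alb-D2KO liver within 10 kb. The nearest RCA lay 930 kb away and the nearest Alb-D2KO-only region 8350 kb away. The lists hold no read coverage, so they could not be used to check the deletion itself. The paper states that Dio2 is silenced in liver after the first days of life, and the livers here are adult. Whether Dio2 had an open region in adult control liver is not known from the lists. Of 2574 coding genes of similar length, 26.7% had an RCA.

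Slc16a10 encodes a membrane transporter of aromatic amino acids that also carries thyroid hormone. It spans chr10:40033532-40142258 on the minus strand, and its single RCA, chr10:40077444-40077901, lay in intron 2 of 5, 64.6 kb from the outermost start and 1068 bp from the start of a shorter transcript. This region had an AUC of 550, above 96.4% of all RCAs, and the highest significance at its summit of the 18, a −log10 q of 3.79. A single RCA was common at this length, with 35.8% of 1236 coding genes having at least 1.

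Crym encodes mu-crystallin, a cytosolic protein that binds T3. It spans chr7:120186380-120202111 on the minus strand, and its single RCA, chr7:120203866-120204097, lay 1755 bp upstream of the body with an AUC of 260. The midpoint of that region was 18 bp from the start of Abca14, a neighbouring gene, and 99 bp of it overlapped an Abca14 exon, so it was in the promoter class for that gene. Its assignment to Crym rests on the 10 kb limit alone. Another RCA, intergenic and with an AUC of 328, lay 13.7 kb from Crym, just outside the limit. Of 2607 coding genes of similar length, 27.3% had an RCA.

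Thrsp encodes a nuclear protein of the lipogenic programme that responds rapidly to T3 in liver. It spans chr7:97412938-97417730 on the minus strand, 4.79 kb, and both of its RCAs were intergenic and upstream, with midpoints 6060 and 7299 bp from the start. Thrsp RCA 1, chr7:97423493-97424087, was 595 bp wide with an AUC of 604, above 97.9% of all RCAs. Thrsp RCA 2, chr7:97424939-97425119, was the narrowest of the 18 at 181 bp, with an AUC of 318 and the highest AUC per bp of them, 1.76. Thrsp was the nearest annotated start to both, although neither touched the gene body. Of 1947 coding genes of similar length, 18.0% had an RCA and 5.34% had 2 or more.

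Klf9, a zinc-finger transcription factor gene that T3 induces, spans chr19:23141226-23168134 on the plus strand and had no region of either list within 10 kb. Its nearest RCA lay 72.2 kb away. A lost region was not the rule for genes of its length, since 27.2% of 2618 had one.

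**Figure D2:**
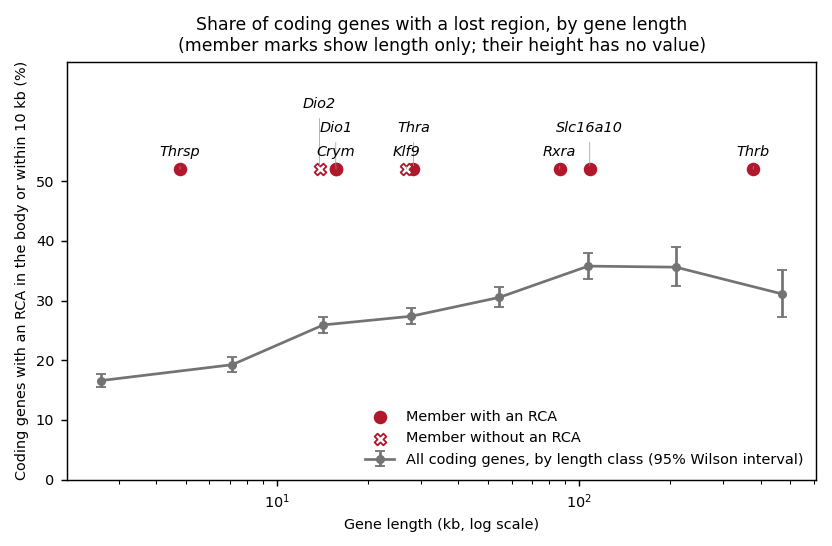
Share of all coding genes with an RCA in the body or within 10 kb, in percent, by gene length in kb on a log axis. Grey points are length classes at their median length, and bars are 95% Wilson intervals; the share runs from 16.6% in genes of up to 5 kb to 35.8% in genes of 80 to 160 kb. Red marks show only the length of each of the 9 genes, filled where the gene has an RCA and open where it has none, and their height has no value.

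The share of coding genes with an RCA rose with length to 160 kb and was 31.1% above 320 kb. The share over genes of similar length had a median of 27.2% over the 9 genes, with a range of 18.0% to 35.8%. The number of regions per gene was also set beside that of all coding genes. At least 2 RCAs were found at 5 of the 9 genes and at 9.15% of coding genes, at least 3 at 3 genes and 3.82%, at least 4 at 2 genes and 1.59%, and at least 5 at 1 gene and 0.703%. Per 100 kb of body and flanks, Dio1 had 8.40 RCAs against 1.13 over genes of similar length, Thrsp 8.07 against 1.05, Thra 4.13 against 0.861, Rxra 3.76 against 0.563 and Thrb 1.26 against 0.219. Crym had 2.80 against 1.14 and Slc16a10 0.777 against 0.529. No gene was compared by a test, because the 9 were named with results of these data known.

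The choice of regions within 10 kb of a gene leaves out distant intergenic RCAs, so the classes of the 18 are set beside the 6385 RCAs in the body or within 10 kb of any coding gene. Of the 18, 12 (66.7%) were intronic against 47.0% of those, 3 (16.7%) intergenic against 18.1%, 2 (11.1%) in the promoter class against 23.0%, and 1 (5.56%) exonic against 11.9%. Of the 18, 13 lay over 5 kb from the outermost start of their gene. Among these, Thra RCA 2, Slc16a10 RCA 1 and Rxra RCA 1 lay 1351, 1068 and 4964 bp from another start of the same gene. The share of all RCAs at such a distance was not counted. The outermost start of each of the 9 genes lay outside the RCAs, the closest at 974 bp from the midpoint of Thrb RCA 1. For 13 of the 18 the gene itself had the nearest annotated start. The exceptions were Crym RCA 1, nearest to Abca14, Thrb RCA 2, nearest to the predicted gene Gm48320, and Thrb RCA 3, 4 and 5, nearest to the predicted gene Gm24140.

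In size the 18 did not stand far from the rest of the list. Their median width was 357 bp (range 181 to 849 bp) against 326 bp for all RCAs, and 10 of them were above that median. The median AUC was 312 (221 to 637) against 278, with 14 above, and 11 of the 18 (61.1%) had an AUC of at least 300 against 40.8% of all. The median AUC per bp was 0.970 against 0.909, and the median −log10 q at the summit 3.18 (2.74 to 3.79) against 3.14. The 4 highest AUCs belonged to Rxra RCA 1, Thrsp RCA 1, Slc16a10 RCA 1 and Thrb RCA 4. The lowest belonged to Thra RCA 2, Rxra RCA 2 and Crym RCA 1.

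**Figure D3:**
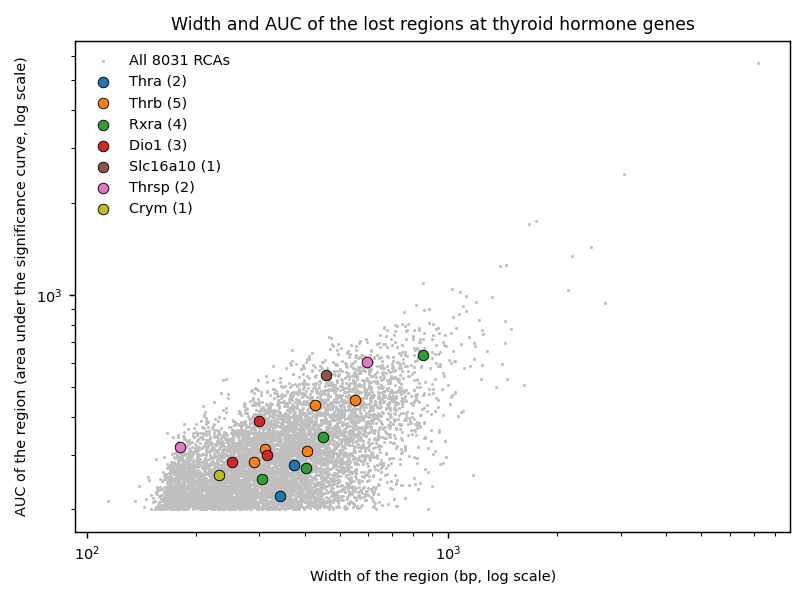
AUC of each RCA, the area under the caller's significance curve, against its width in bp, both on log axes. Small grey points are all 8031 RCAs and large points the 18 at the named genes, with the number per gene in the key. The 18 lie inside the grey cloud, from 181 to 849 bp and from an AUC of 221 to 637, and Thrsp RCA 2 sits at its narrow edge.

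The numbers that the caller gave the control regions rise along each chromosome, so a missing number marks a control region that is not in the list of RCAs and therefore overlapped a region of Alb-D2KO liver. Such regions are called kept here. Genome-wide at least 22368 control regions were called, of which 35.9% were RCAs. At Rxra no kept region lay between its 4 RCAs, which are separated by 5.36, 11.3 and 30.0 kb. At Thrb no kept region lay among the 4 intronic RCAs, over gaps of 61.1, 53.6 and 16.9 kb, and 1 lay in the 125 kb between the upstream RCA and the first intronic one, a stretch that holds the gene start. No kept region separated the 3 RCAs of Dio1, the 2 of Thra or the 2 of Thrsp. Runs of neighbouring RCAs with no kept region between them are frequent in the list as a whole, so these counts are read against it. Of the 18, 15 (83.3%) were in a run of 2 or more against 64.4% of all RCAs, 11 (61.1%) in a run of 3 or more against 38.5%, and 8 (44.4%) in a run of 4 or more against 23.6%. The 8 are the intronic RCAs of Thrb and the 4 of Rxra.

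By definition a run ends where a kept region or the end of the chromosome follows. What is given here is how many kept regions lay in the stretches around these genes. Between the run of Rxra and the RCA before it, a stretch of 54.7 kb that holds the gene start had 3 kept regions. At Dio1 the stretch that holds the start, 595 kb long, had 4, and at Thra the 31.3 kb that holds the outermost start had 1. The stretch of 84.6 kb with the whole Thrsp body had 5, and the 31.2 kb with the whole Crym body had 2. Around the genes without an RCA, 3 kept regions lay in the 417 kb between the RCAs that flank Klf9 and 13 in the 4510 kb between those that flank Dio2. The numbers place a kept region only between 2 RCAs, so which of them lie at a gene start is not known from the lists.

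**Figure D4:**
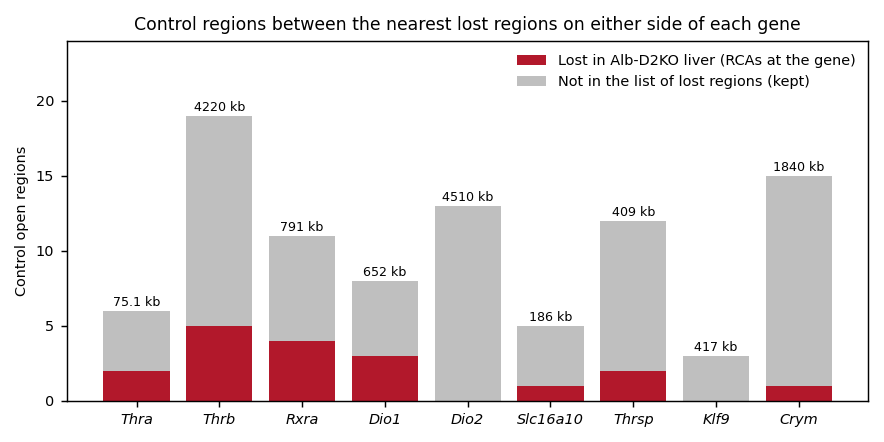
Control open regions, as counts, in the stretch between the nearest RCAs on either side of each gene, for the 9 genes on the x axis. Red is the number of RCAs at the gene, grey the number of control regions kept in Alb-D2KO liver, and the length of the stretch stands above each bar. Dio2 has 13 kept and 0 lost in 4510 kb, Klf9 3 kept and 0 lost in 417 kb, and the stretches differ in length, so bar heights are not densities.

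Letters of receptor sites were then searched in the 300 bases around each summit, on both strands and alike in the 18 regions and in all 8019 RCAs of chromosomes 1 to 19 and X. The half-site AGGTCA, to which thyroid hormone and retinoid receptors bind, was in 4 of the 18 (22.2%) and in 30.0% of all RCAs. Those 4 were Thrsp RCA 1, Thrsp RCA 2, Dio1 RCA 3 and Thrb RCA 5. In Thrsp RCA 2 the half-site lay just outside the called end of the region. Thrsp RCA 1 alone held 3.

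A direct repeat of the half-site spaced by 4 bases (DR4) occurred without a mismatch in none of the 18, a count of 0 that allows 16.7%, and in 2 of all RCAs (0.0249%). With at most 1 mismatch in each half-site it was in 1 of the 18 (5.56%) and in 3.57% of all. That one is AGGTCAggttAGTTCA in Thrsp RCA 1, on the minus strand at chr7:97423934-97423949, and its middle lies 4 bp from the summit. Thrsp is also on the minus strand. A direct repeat spaced by 1 base (DR1), with the same tolerance, was in 2 of the 18 (11.1%) and in 7.42% of all: AGGACAgAGGGCA in Dio1 RCA 3 and AAGTCAaAGGGCA in Thrb RCA 4, both on the minus strand. An inverted repeat with no gap and an everted repeat with a gap of 6 bases were in none of the 18 with this tolerance and in 1.11% and 1.17% of all. A match of letters is a description and not evidence of binding.

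The C/EBP core TTGCNNAA, read by a family of liver transcription factors, was in 4 of the 18 (22.2%) and in 18.4% of all. It was TTGCACAA in both Thrb RCA 3 and Slc16a10 RCA 1, TTGCATAA in Thra RCA 1, 5 bp from the summit, and TTGCCAAA beside Rxra RCA 4, 135 bp from the summit and outside the called region. The SP1 box GGGGCGGGG was in none of the 18 and in 4.38% of all. In base composition the 18 were close to the list, with a median GC content of 51.7% against 51.0% and a median ratio of observed to expected CpG of 0.210 against 0.271. The most CpG were in the 2 of the promoter class, 29 in Thra RCA 1 with 69.3% GC and 23 in Crym RCA 1 with 60.7% GC. Thrsp RCA 2 had 11 CpG, and the intronic Rxra RCA 3 had 62.3% GC with 5 CpG.

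The rest of the pathway was counted in the same way, from 7 lists with 78 genes. At least 1 RCA was found at 42 of them (53.8%), beside 25.3% of all coding genes. No gene of the lists had a region open only in Alb-D2KO liver, beside 1.02% of all coding genes with such a region. The lists were not matched for length. Their median gene length ran from 6.59 kb (other receptors and deiodinase) to 133 kb (coregulators). The share of all coding genes with an RCA was 19.3% at 5 to 10 kb and 35.8% at 80 to 160 kb. Hepatic T3 targets had an RCA at 11 of 15 genes (73.3%), led by Cpt1a, the entry enzyme of mitochondrial fatty acid oxidation, with 4 RCAs and AUCs of 294 to 547, and by Srebf1, a regulator of lipogenesis, with 3 and AUCs of 381 to 466. Me1, a lipogenic T3 target, had 1 with an AUC of 215, near the lowest of all RCAs (200). Cyp7a1, Fasn, Gpd2 and Hr had none.

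Carriers and conjugating enzymes had an RCA at 3 of 4 genes, with 2 each at Alb, which carries thyroid hormone in plasma, and Sult1a1, a sulfotransferase. Among the other transporters it was 4 of 9 (44.4%), with 2 at Slco1a4, an organic anion transporter, and 1 at the bile acid transporter Slc10a1 with an AUC of 470. Of the other receptor and deiodinase genes, Rxrb had 1 RCA, in the promoter class and with an AUC of 314, and Rxrg and Dio3 had none.

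Coregulators had an RCA at 6 of 11 genes (54.5%). Ncor1, a corepressor that receptors recruit without hormone, had 2, with AUCs of 214 to 276, both under the median of all RCAs (278). The other nuclear receptors had an RCA at 17 of 26 (65.4%), with 7 at Rora, which is 734 kb long, and 6 at Hnf4a, with AUCs of 220 to 737. None of the 10 thyroid and pituitary genes, which are not liver genes, had an RCA, a count of 0 that allows 30.0%. Cell type markers were counted alike. Markers of hepatocytes had an RCA at 4 of 5 genes, with 12 RCAs, Cyp2e1 being the one without. Markers of endothelial cells had an RCA at 2 of 4 (Pecam1 and Stab2) and of cholangiocytes at 1 of 4 (Sox9). None of the 4 Kupffer cell and 4 stellate cell markers had one, but a count of 0 among 4 genes still allows a large share. With 4 or 5 genes each, the marker lists are too short to tell the cell types apart. The lists hold only regions that differ between the groups, so the labelled tissue could be checked no further, and whether the share of hepatocyte nuclei differed between the groups was not tested.

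**Figure D5:**
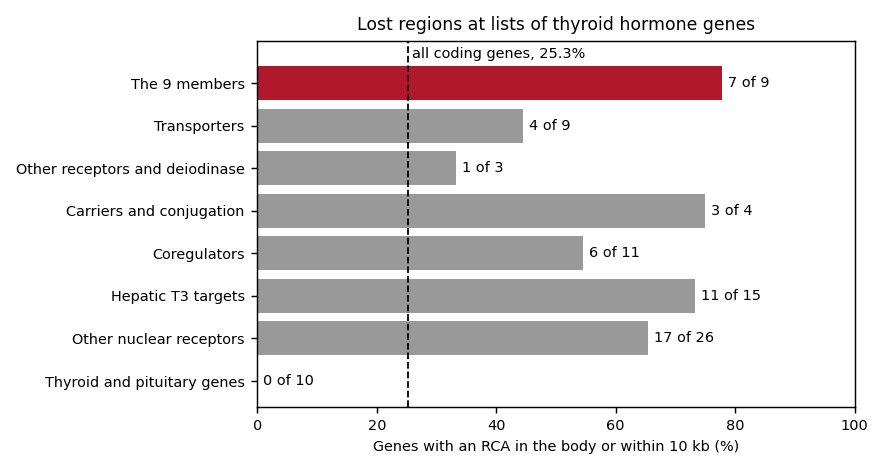
Share of genes with an RCA in the body or within 10 kb, in percent, for the 9 genes (red) and the 7 other lists (grey), with the counts beside each bar. The dashed line is the 25.3% of all coding genes of any length, not matched to the lengths in a list. The 9 genes reach 77.8%, the hepatic T3 targets 73.3%, and the thyroid and pituitary genes at 0.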

How the data were processed

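Regions open in 4 control and 4 Alb-D2KO liver libraries were analysed as deposited. The authors trimmed adapters with NGmerge, aligned reads to mm10 with BWA 0.7.17, removed duplicate, chimeric and poorly mapped alignments, called regions on the pooled libraries with Genrich 0.6 outside a blacklist made from single-library calls, and subtracted regions of one genotype that overlapped the other. The deposited signal of a region is its AUC, the area under the caller's significance curve (whether of p or of q is not stated), the deposited score is AUC per bp times 1000 with a ceiling, and the deposited −log10 q is that of the summit (a −log10 p beside it was not used). Calls are pooled, so there is no replicate error, and no column of other samples was present (0).

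Genes, transcripts and exons came from GENCODE M21 (mm10), which is not the release named in the study's methods. A region belonged to a gene when it overlapped the body or lay within 10 kb, and was classed in the order promoter (200 bp or less from an annotated start), exon, intron, intergenic. Genes of similar length were coding genes with 80% to 125% of the length of the named gene. Kept regions were counted from gaps in the numbers of the control call. Motifs were searched in 300 bases around the summit on both strands. The counting was tested on simulated regions. All 9 genes, each of their RCAs, the gene with the nearest start and, in each other list, the up to 2 genes with most RCAs were named, except where an item is not reported here; Me1, Nr1d1, genes of a list without an RCA and marker genes were named after their values were seen. The genes and lists were chosen with earlier results of these data known. Alternatives were other distances, gene bodies or starts only, an AUC of at least 300, a q under 0.001, merging, other promoter and motif windows and other length factors. Python 3.11.15, pandas 2.3.3, scipy 1.17.1 and pysam 0.24.0 were used.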

Additional observations from a re-analysis of the deposited data

How the results depend on the processing

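Of 80 alternatives, 67 left a value within its margin and 13 moved it. The margin was a wide ratio, so a fall from 7 to 5 of the 9 genes counted as within it. A count of 0 that stayed 0 was counted as within it too, so the tally does not measure how firm the values are. The share of coding genes with an RCA was 15.8% with gene bodies only, 44.6% within 50 kb and 13.0% with an AUC of at least 300, and the median share over genes of similar length was 17.4%, 49.6% and 14.6% under the same settings and 16.8% with the gene start within 10 kb. An AUC of at least 300 left 11 RCAs at 5 of the 9 genes and 27 of the 42 pathway genes. Of the 18 RCAs, 4 were in the promoter class with a window of 1000 bp and 5 with 3000 bp. The share of all RCAs in that class was not counted at these windows. Of the 9 genes, 5 had an RCA with gene bodies only, 6 within 5 kb, 7 within 25 kb and 7 within 50 kb. The matching shares of all coding genes were 15.8%, 21.3%, 34.3% and 44.6%, so the background rose while the count stayed at 7. With a q under 0.001, 6 of the 9 had an RCA, against 19.8% of all coding genes. With regions at the start of another gene left out, a choice made after seeing the data, 6 of the 9 had an RCA, since Crym lost its own. No region open only in Alb-D2KO liver lay at the 9 genes at any of these distances. The share of all coding genes with such a region was 1.02% within 10 kb and was not counted at the other distances. Over whole called regions, the everted repeat with a gap of 6 bases was in 2 of the 18 (11.1%) and 1.56% of all RCAs. Within 150 bases around the summit, a DR1 pair was in 1 of the 18 (5.56%) and 4.85% of all. Both searches allowed at most 1 mismatch in each half-site. No paired analysis was possible because the calls are pooled, which also means that no library could be left out.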
